A study of Mus musculus with 6 samples.

Results

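The kinesin superfamily genes were taken as every protein-coding gene with a mouse GRCm38 symbol that begins with Kif or Kifc and a digit. Of 54532 genes in each library, 47 symbols matched; 4 of these are pseudogenes or antisense genes, and 43 protein-coding genes remained. They were set apart by known role into 15 spindle kinesins, 14 transport kinesins, 9 flagellar or ciliary kinesins and 5 others. One of the others, Kif1bp, meets the rule by its symbol but encodes a protein that binds kinesins, not a motor.

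RNA was sequenced from mouse testis cells labelled as pachytene cells, which are spermatocytes in the long stage of meiotic prophase when homologous chromosomes are paired, purified by STA-PUT (sedimentation of cells by size through an albumin gradient) at about 80 days of age. The groups were MAPS knockout (KO, written MAPS-/- in the design), MAPS EE;MAPS-/- (EE_KO, labelled as overexpression of MAPS in the knockout background, so that it carries the knockout too) and wild type (WT). Each group had 2 libraries from 2 independent experiments and 3 mice of one genotype. The stated purpose was to check meiotic sex chromosome inactivation (MSCI, the silencing of the X and Y chromosomes at this stage) after loss of MAPS. Neither the meaning of EE, the promoter that drives it, the part of the gene deleted nor the pooling of mice is given in the sources used here.

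Kinesins are motors that convert ATP hydrolysis into movement along microtubules, most of them toward the plus end. Spindle kinesins slide, shorten or cross-link the microtubules that separate chromosomes and complete cytokinesis, and transport kinesins carry vesicles, mitochondria and protein complexes. In male germ cells the heterotrimeric kinesin-2 motor moves intraflagellar transport trains into the growing sperm tail, and other members shape the manchette, the flagellum and the cilium tip. Several are transcribed in spermatocytes ahead of the divisions and of tail formation.

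Values are FPKM, fragments scaled to exon length and library size, so that levels of different genes can be set side by side per length. Differences are on the log2(FPKM + 1) scale with the standard error (SE) and adjusted p of limma (Benjamini-Hochberg over 15363 genes with a mean of at least 1 FPKM), and a gene was called at an adjusted p below 0.05. Such a p reflects no more than the spread of these libraries, which may be technical. Library depth, recovered from the FPKM and exon lengths, was 14178387 to 16565238 reads on genes, and 1 read over 2 kb was worth 0.0278 to 0.0357 FPKM. The MAPS gene, 1700102P08Rik on chromosome 9, had 7.97 and 10.1 FPKM in KO, 109 and 82.2 in EE_KO and 157 and 150.2 in WT.

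The promoters of 6 kinesin genes are shown because their genes moved furthest within a role or against it, or hold the letters most frequent in it. Each window runs from 250 bases before to 50 after a RefSeq transcription start (GRCm38.p6), read 5′ to 3′ on the gene's strand. Capitals mark the letters CCAAT (the NF-Y box), TTTGAA or TTTAAA (the core of the cell cycle homology region, CHR) and GTTGCC (an RFX motif core), on either strand. Kif2b (chr11:91577506-91577805, minus strand) and Kif18b (chr11:102925075-102925374, minus strand) are spindle genes that fell in KO, and Kif4 (chrX:100625815-100626114, plus strand) is the spindle gene that rose. Kif9 (chr9:110476708-110477007, plus strand) and Kif17 (chr4:138262001-138262300, plus strand) are flagellar genes that fell, and Kif21a (chr15:91049902-91050201, minus strand) is the transport gene with the furthest rise.
Kif2b: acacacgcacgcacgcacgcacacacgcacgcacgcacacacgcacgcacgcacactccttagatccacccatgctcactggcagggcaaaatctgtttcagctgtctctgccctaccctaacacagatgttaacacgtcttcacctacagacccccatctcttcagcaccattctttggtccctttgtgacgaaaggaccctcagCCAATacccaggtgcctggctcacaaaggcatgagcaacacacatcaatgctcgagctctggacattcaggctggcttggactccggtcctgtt
Kif18b: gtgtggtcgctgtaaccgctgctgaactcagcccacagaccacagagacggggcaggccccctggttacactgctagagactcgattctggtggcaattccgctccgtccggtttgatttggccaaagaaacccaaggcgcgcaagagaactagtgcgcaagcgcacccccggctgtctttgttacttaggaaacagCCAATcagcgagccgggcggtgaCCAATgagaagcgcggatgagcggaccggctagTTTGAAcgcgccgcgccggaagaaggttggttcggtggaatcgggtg
Kif4: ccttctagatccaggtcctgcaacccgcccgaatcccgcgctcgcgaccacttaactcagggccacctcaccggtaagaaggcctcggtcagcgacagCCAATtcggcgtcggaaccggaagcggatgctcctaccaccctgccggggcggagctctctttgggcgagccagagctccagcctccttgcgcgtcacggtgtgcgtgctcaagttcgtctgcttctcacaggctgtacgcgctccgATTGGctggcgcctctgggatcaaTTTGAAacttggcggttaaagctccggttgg
Kif9: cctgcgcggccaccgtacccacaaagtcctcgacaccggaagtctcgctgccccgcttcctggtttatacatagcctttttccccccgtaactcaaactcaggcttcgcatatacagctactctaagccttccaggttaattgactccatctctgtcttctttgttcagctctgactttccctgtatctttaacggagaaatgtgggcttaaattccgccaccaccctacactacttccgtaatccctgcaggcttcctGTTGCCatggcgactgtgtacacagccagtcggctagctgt
Kif17: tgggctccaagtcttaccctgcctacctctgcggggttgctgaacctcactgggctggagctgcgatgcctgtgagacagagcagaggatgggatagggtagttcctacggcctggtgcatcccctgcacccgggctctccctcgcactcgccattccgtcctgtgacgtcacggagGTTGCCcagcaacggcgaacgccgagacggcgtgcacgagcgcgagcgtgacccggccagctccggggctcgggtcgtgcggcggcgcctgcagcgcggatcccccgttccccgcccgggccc
Kif21a: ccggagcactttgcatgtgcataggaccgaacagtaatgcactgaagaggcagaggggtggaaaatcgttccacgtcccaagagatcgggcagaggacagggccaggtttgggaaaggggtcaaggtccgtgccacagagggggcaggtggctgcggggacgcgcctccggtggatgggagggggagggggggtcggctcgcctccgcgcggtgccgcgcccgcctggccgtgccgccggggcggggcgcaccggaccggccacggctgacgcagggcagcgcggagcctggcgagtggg

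Windows were matched for 33 of the 43 genes. CHR letters were in 11 of 14 spindle promoters, against 1 of 8 flagellar and 1 of 8 transport promoters and 27.6% of all 32851 mouse promoters of the table. CCAAT was in 9 of 14 spindle, 5 of 8 flagellar and 1 of 8 transport promoters, against 37.4% of all. The pair of CCAAT and CHR, as in Kif18b and Kif4 above, stood in 8 of 14 spindle promoters, while Kif2b held CCAAT alone. GTTGCC was in 4 of 8 flagellar promoters, including Kif9 and Kif17, in 3 of 14 spindle and 3 of 8 transport promoters, and in 12.5% of all. The MYB core AACNG is so short that 80.3% of all promoters held it, as did 29 of the 33 kinesin promoters. These counts describe letters in a window and were not tested; no letters of the 3 marked kinds were in the Kif21a window, which says nothing about the factors.

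In KO, spindle and flagellar kinesin RNA was lower and transport kinesin RNA higher than in EE_KO and WT. Summed over all members, kinesin RNA was 264 and 265 FPKM in KO, 682 and 761 FPKM in EE_KO and 754 and 739 FPKM in WT. Spindle kinesins summed to 57.5 and 66.5 FPKM in KO, 284 and 323 FPKM in EE_KO and 301 and 317 FPKM in WT. Flagellar kinesins summed to 47.8 and 48.8 FPKM in KO, 337 and 377 FPKM in EE_KO and 395 and 364 FPKM in WT. For both classes the KO libraries lay far below all 4 others. Transport kinesins ran the other way, with 148 and 139 FPKM in KO against 52.0 and 52.7 FPKM in EE_KO and 50.1 and 49.3 FPKM in WT. They made up 54.2% ± 2.36 of kinesin FPKM in KO, 7.27% ± 0.49 in EE_KO and 6.66% ± 0.02 in WT (SD, n = 2 libraries each). Most of the transport sum in KO came from Kif21a and Kif5b, with 92.9 and 88.2 FPKM together in KO, 12.1 and 8.05 FPKM in EE_KO and 8.36 and 8.27 FPKM in WT. Without this pair, left out after its values were seen, transport kinesins summed to 54.9 and 51.0 FPKM in KO, 39.9 and 44.6 FPKM in EE_KO and 41.7 and 41.1 FPKM in WT, a KO over WT ratio of 1.28.

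**Figure D1:**
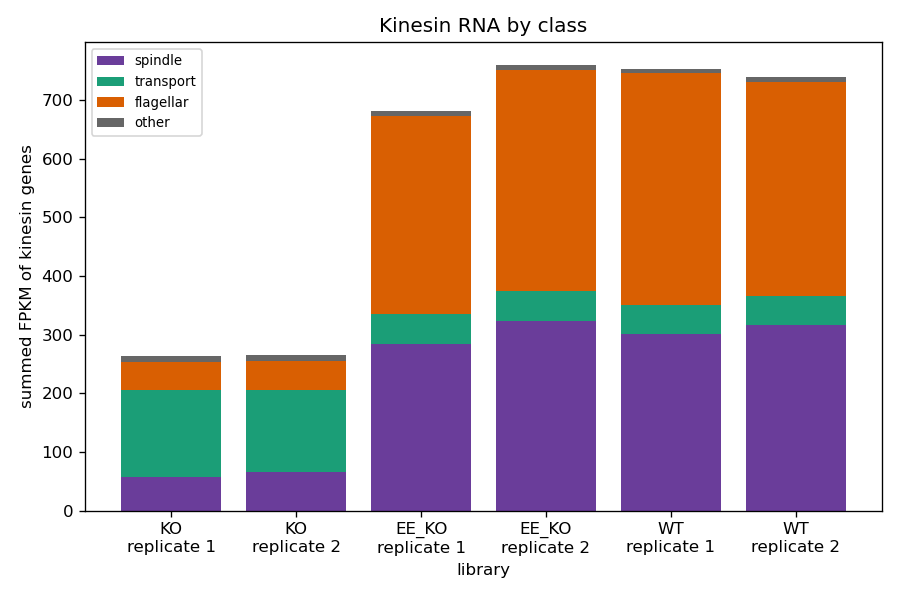
Summed FPKM of the kinesin genes in each of the 6 libraries, stacked by class (spindle, transport, flagellar, other). The KO bars reach 264 and 265 FPKM and are mostly transport kinesins, while the EE_KO bars reach 682 and 761 FPKM and the WT bars 754 and 739 FPKM and are mostly flagellar and spindle kinesins.

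Of the 43 genes, 39 passed the filter on low values. In KO against WT, 10 of these were called higher and 23 lower, and 6 were not called. Among all genes tested 38% were called higher and 48.1% lower, so the shares of kinesin genes called, 25.6% higher and 59.0% lower, lie close to the background. The members' median difference was -1.07, against -0.29 over all genes tested. The split ran by role, though the roles were set with earlier results of these data known. Of 15 spindle kinesins 12 fell and 1 rose (median -1.27). Of 9 flagellar kinesins 8 fell and 1 rose (median -2.40), and of 13 transport kinesins 7 rose and 3 fell (median 1.01). Kif4, Kif7, Kif26a, Kif1a and Kif13a averaged under 1 FPKM in WT and passed the filter only through KO. Their rise was thus bound up with their being tested. Kif2b, Kif19a, Kif18a and Kif21b averaged under 1 FPKM in KO and passed only through EE_KO and WT. The same limit holds for their fall.

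The total of all FPKM was also lower in KO (251584 and 232716) than in EE_KO (315680 and 325048) and WT (335071 and 321463). Scaled to TPM, a measure with the same total in every library, the median of all genes in KO against WT moved to 0.09, against -0.29 as deposited. The class medians then stood at -1.10 for spindle, -2.02 for flagellar and 1.84 for transport kinesins, each in its direction. The WT over KO ratio of summed flagellar RNA was 7.86 in FPKM and 5.78 in TPM, that of spindle RNA was 4.99 and 3.67, and the KO over WT ratio of transport RNA, with Kif21a and Kif5b in it, was 2.89 and 3.91.

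The 3 Kif2 genes, of the kinesin-13 family whose products depolymerise microtubule ends instead of walking, were the spindle genes that fell furthest. Kif2b (ENSMUSG00000046755, chromosome 11), known for correcting kinetochore attachments, had 0.992 and 0.744 FPKM in KO, 83.1 and 106 FPKM in EE_KO and 69.8 and 112 FPKM in WT. The KO libraries held 40 and 29 reads of it, against 2193 and 3789 reads in WT. It fell by 5.58 (SE 0.22, adjusted p = 2.57e-07), the furthest of any kinesin gene tested, and the KO mean was 104-fold below that of WT. Kif2c, the centromeric kinesin MCAK, had 2.81 and 3.496 FPKM in KO, 25.7 and 30.02 FPKM in EE_KO and 29.8 and 31.2 FPKM in WT, and fell by 2.93 (SE 0.14, adjusted p = 5.05e-07). Kif2a, which acts at spindle poles, had 8.36 and 8.55 FPKM in KO, 47.3 and 49.9 FPKM in EE_KO and 58.0 and 49.6 FPKM in WT, and fell by 2.53 (SE 0.11, adjusted p = 4.60e-07). In all 3 genes the KO libraries lay below every other library. For this and like statements below, the share of all genes with KO set apart was not counted. They describe single genes, beside 38% of all genes called higher and 48.1% lower in KO against WT. Kif2a shares 19.2% of its exon length with Dimt1 on the opposite strand, which had 1.60 to 2.76 FPKM over the 6 libraries. Within KO the order of levels was Kif2a, Kif2c, Kif2b, whereas in WT Kif2b stood first, so the paralogue with the highest WT mean was the lowest in KO.

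The kinesin-8 genes, whose motors walk to plus ends and dampen their growth, also fell. Kif18b, active on astral microtubules, had 3.46 and 3.79 FPKM in KO, 18.6 and 19.3 FPKM in EE_KO and 20.02 and 18.1 FPKM in WT, and fell by 2.12 (SE 0.12, adjusted p = 1.36e-06). Its relative Kif18a, which limits chromosome oscillation and is needed for germ cell divisions in mice, had 0.849 and 0.855 FPKM in KO, 3.10 and 3.08 FPKM in EE_KO and 3.04 and 2.74 FPKM in WT. The KO libraries of both genes stood apart from the rest.

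Motors that hold the bipolar spindle open followed. Kif11, the tetrameric motor Eg5, had 6.55 and 8.84 FPKM in KO, 21.3 and 26.2 FPKM in EE_KO and 24.2 and 21.0 FPKM in WT. For Kif15, which backs up Kif11, the values were 1.79 and 2.28 FPKM in KO, 7.12 and 8.62 FPKM in EE_KO and 7.84 and 7.10 FPKM in WT. The chromokinesin Kif22, which pushes chromosome arms outward, had 3.37 and 3.99 FPKM in KO, 9.81 and 7.999 FPKM in EE_KO and 11.4 and 9.30 FPKM in WT. These 3 genes fell by 1.27 to 1.49.

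The central spindle and cytokinesis motors divided. Kif20a, which carries the chromosomal passenger complex to the midzone, had 7.38 and 8.07 FPKM in KO, 32.0 and 33.8 FPKM in EE_KO and 38.6 and 34.1 FPKM in WT. Over 29.3% of its exon length it overlaps Cdc23 on the opposite strand, which had 3.26 to 4.39 FPKM over the 6 libraries. Kif20b, a relative of Kif20a, had 4.02 and 4.51 FPKM in KO, 12.2 and 13.3 FPKM in EE_KO and 11.8 and 9.71 FPKM in WT. Kif14, a partner of citron kinase and PRC1, had 1.005 and 1.09 FPKM in KO, 2.67 and 2.95 FPKM in EE_KO and 3.03 and 2.74 FPKM in WT. Kif20a fell by 2.10, Kif20b fell by 1.16 and Kif14 fell by 0.92. Kif23, the motor subunit of centralspindlin, was not called, with 6.02 and 6.53 FPKM in KO, 7.10 and 6.71 FPKM in EE_KO and 7.10 and 5.20 FPKM in WT (difference 0.04, SE 0.16, adjusted p = 0.831). Its KO values lay inside the WT range.

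The minus-end directed kinesin-14 genes Kifc1 and Kifc5b, on chromosome 17, share 38.6% and 36.6% of their transcripts' 50-base words with each other, so that reads may have been divided between them. Kifc1 had 4.02 and 5.47 FPKM in KO, 5.03 and 6.20 FPKM in EE_KO and 6.65 and 5.80 FPKM in WT, and was not called (-0.34, SE 0.18, adjusted p = 0.104). Kifc5b had 3.37 and 4.40 FPKM in KO, 8.03 and 8.06 FPKM in EE_KO and 9.35 and 7.90 FPKM in WT, and was called lower by 0.98. Its KO libraries lay below all others, but its assignment is uncertain.

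The spindle gene that rose was Kif4 (ENSMUSG00000034311), a chromokinesin that works with PRC1 at the midzone and the one member on the X chromosome. It had 3.48 and 3.84 FPKM in KO, 0.793 and 0.424 FPKM in EE_KO and 0.609 and 0.623 FPKM in WT, a difference of 1.53 (SE 0.17, adjusted p = 4.51e-05). Its exons overlap those of Pdzd11, on the opposite strand, over 15.1% of their length, and Pdzd11 had 15.3 and 14.9 FPKM in KO, 1.41 and 0.974 FPKM in EE_KO and 1.01 and 0.901 FPKM in WT. As the strand of the reads is not given, reads from the overlap cannot be told apart. An autosomal copy moved the opposite way. Kif4-ps (ENSMUSG00000092054), a transcribed processed pseudogene on chromosome 12 and no member by the rule, had 0.228 and 0.458 FPKM in KO, 12.1 and 12.1 FPKM in EE_KO and 16.01 and 13.9 FPKM in WT. It fell by 3.57 (SE 0.15, adjusted p = 3.11e-07), and 0.366% of its 50-base words occur in any other transcript. In KO the X-linked gene was the higher of the pair, while in EE_KO and WT the pseudogene was.

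Flagellar kinesins fell as a class with 1 exception. Kif9 (ENSMUSG00000032489, chromosome 9), a motor of the central apparatus of motile flagella, had 5.05 and 5.80 FPKM in KO, 121 and 132 FPKM in EE_KO and 148 and 119 FPKM in WT. It had the highest mean of all kinesin genes in both EE_KO and WT, made up 17.5% and 17.8% of their kinesin FPKM, and fell by 4.38 in KO (SE 0.13, adjusted p = 8.65e-08). Kif17, known in mouse spermatids for moving the CREM co-activator ACT, had 1.17 and 1.33 FPKM in KO, 28.2 and 31.2 FPKM in EE_KO and 28.6 and 43.0 FPKM in WT, and fell by 4.01 (SE 0.19, adjusted p = 5.52e-07). Kif19a, which shortens microtubules at cilium tips, had 0.465 and 0.382 FPKM in KO, 15.3 and 14.6 FPKM in EE_KO and 20.4 and 15.6 FPKM in WT, and fell by 3.73 (SE 0.16, adjusted p = 3.14e-07). Kif27, linked to motile cilia assembly, had 3.45 and 3.91 FPKM in KO, 46.7 and 68.1 FPKM in EE_KO and 45.8 and 49.4 FPKM in WT, and fell by 3.38 (SE 0.18, adjusted p = 9.15e-07). None of these 4 genes had a KO library near the range of the other groups.

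Kif3a and Kif3b, the motor subunits of heterotrimeric kinesin-2, fell less far than Kif17, the homodimeric kinesin-2. Kif3b had 17.0 and 15.1 FPKM in KO, 70.8 and 71.9 FPKM in EE_KO and 96.7 and 81.7 FPKM in WT, and its partner Kif3a had 13.95 and 16.1 FPKM in KO, 40.2 and 41.8 FPKM in EE_KO and 39.1 and 40.4 FPKM in WT. In WT, Kif3b was thus above Kif3a in each library, and in KO the pair stood at about one level, with Kif3b higher in replicate 1 and Kif3a in replicate 2. Kif3c, the alternative partner of Kif3a and counted here with the transport kinesins, did not pass the filter, with 1.85 and 1.35 FPKM in KO, 0.304 and 0.334 FPKM in EE_KO and 0.212 and 0.232 FPKM in WT. An antisense gene, 1110002L01Rik, covers 35.3% of its exon length.

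Among the remaining flagellar genes, Kif24, a further kinesin-13 motor, which works with CP110 to hold back cilium growth, had 2.67 and 2.51 FPKM in KO, 9.02 and 9.54 FPKM in EE_KO and 9.58 and 8.89 FPKM in WT. Kif6, a relative of Kif9, had 1.80 and 1.54 FPKM in KO, 5.17 and 6.64 FPKM in EE_KO and 6.13 and 5.80 FPKM in WT. Both fell, by 1.51 and 1.38. Kif7, a cilium-tip regulator of Hedgehog signalling, rose by 0.78, with 2.21 and 2.20 FPKM in KO, 0.835 and 0.846 FPKM in EE_KO and 0.889 and 0.851 FPKM in WT. Over 19.1% of its exon length it overlaps the antisense gene 9330171B17Rik, which had 0.590 and 0.444 FPKM in KO, 16.3 and 18.6 FPKM in EE_KO and 21.1 and 15.9 FPKM in WT and so moved the other way.

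**Figure D2:**
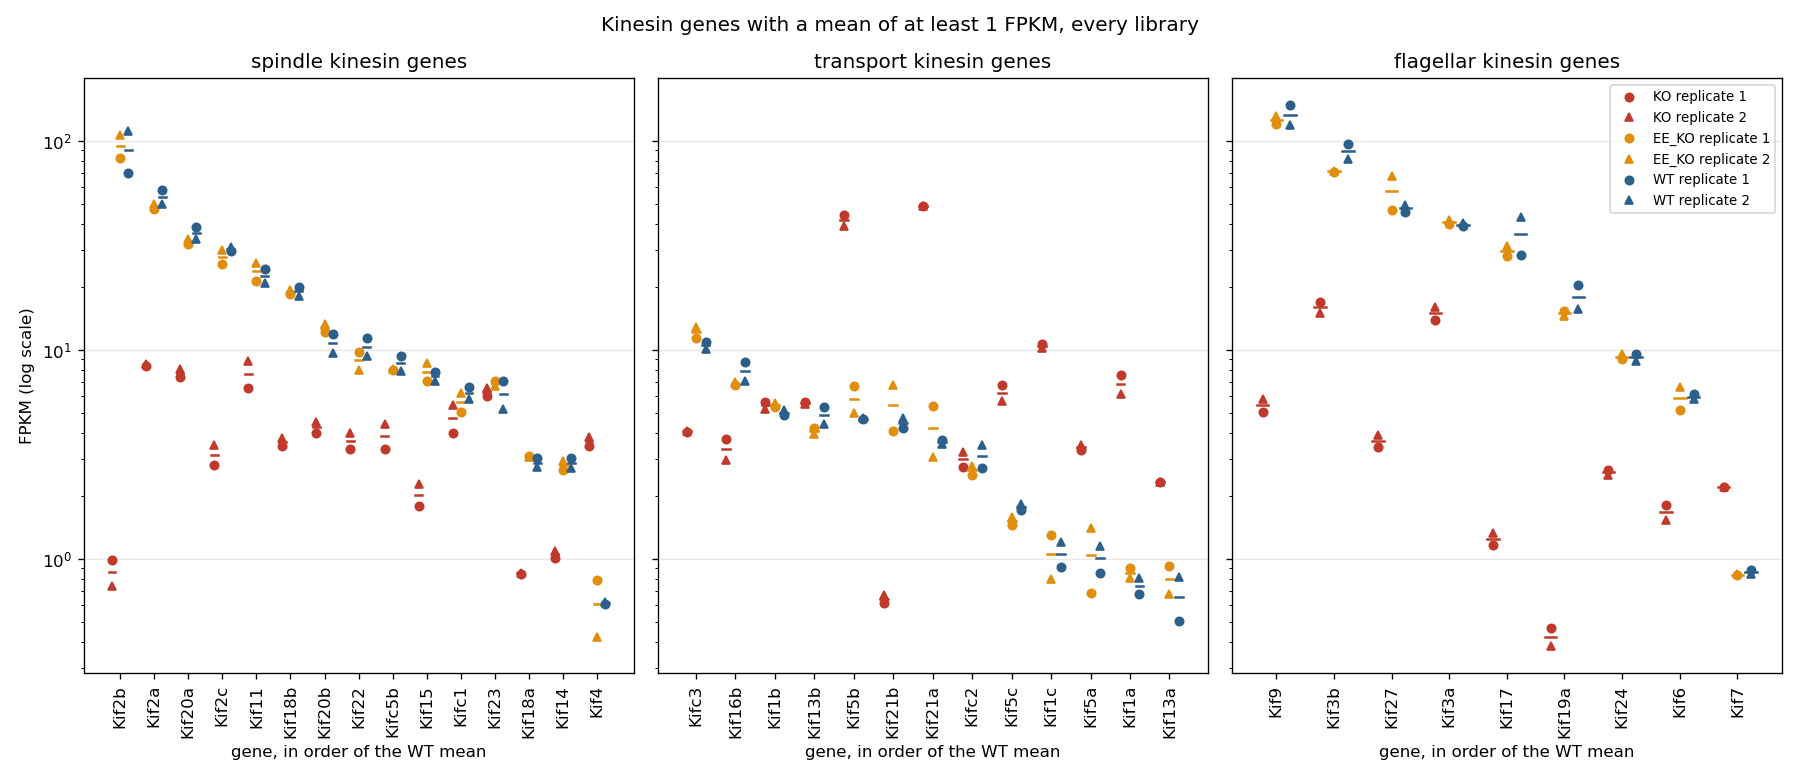
FPKM of each spindle, transport and flagellar kinesin gene that passed the filter, on a log scale, in order of the WT mean; circles and triangles are replicates 1 and 2, bars are group means. KO points of most flagellar and spindle genes lie below the EE_KO and WT points, down to 0.382 FPKM for Kif19a, with Kif7 and Kif4 the other way, whereas KO points of Kif21a and Kif5b lie above 39 FPKM and those groups below 7 FPKM.

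Of the transport kinesins, Kif21a (ENSMUSG00000022629, chromosome 15), a kinesin-4 motor that damps microtubule growth in neurons, rose furthest. It had 48.6 and 49.0 FPKM in KO, 5.38 and 3.08 FPKM in EE_KO and 3.71 and 3.54 FPKM in WT, a difference of 3.43 (SE 0.20, adjusted p = 1.60e-06). In KO it was the most abundant kinesin RNA, with 18.4% of kinesin FPKM. Kif5b (ENSMUSG00000006740, chromosome 18), the ubiquitous heavy chain of conventional kinesin, had 44.3 and 39.2 FPKM in KO, 6.71 and 4.97 FPKM in EE_KO and 4.66 and 4.73 FPKM in WT, and rose by 2.91 (SE 0.15, adjusted p = 9.50e-07). The kinesin-3 gene Kif1c, of widespread vesicle transport, had 10.6 and 10.2 FPKM in KO, 1.30 and 0.799 FPKM in EE_KO and 0.913 and 1.21 FPKM in WT, and rose by 2.47 (SE 0.17, adjusted p = 4.07e-06). Kif1a, the kinesin-3 carrier of synaptic vesicle precursors in neurons, had 7.55 and 6.15 FPKM in KO, 0.900 and 0.809 FPKM in EE_KO and 0.681 and 0.807 FPKM in WT, and rose by 2.16 (SE 0.16, adjusted p = 4.77e-06). For these 4 genes the lowest KO library was above the highest of the other groups.

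The other conventional kinesin heavy chains, known from neurons, rose less. Kif5c had 6.77 and 5.68 FPKM in KO, 1.45 and 1.58 FPKM in EE_KO and 1.71 and 1.82 FPKM in WT. For Kif5a the values were 3.34 and 3.52 FPKM in KO, 0.684 and 1.41 FPKM in EE_KO and 0.858 and 1.15 FPKM in WT. Kif13a, a kinesin-3 motor of endosomal transport, had 2.33 in each KO library, 0.928 and 0.677 FPKM in EE_KO and 0.503 and 0.816 FPKM in WT. All 3 were called, with differences of 1.38, 1.15 and 1.01.

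The 3 transport genes that fell were Kif21b, Kifc3 and Kif16b. Kif21b, the paralogue of Kif21a, had 0.612 and 0.671 FPKM in KO, 4.10 and 6.81 FPKM in EE_KO and 4.25 and 4.70 FPKM in WT, and fell by 1.74. In KO the Kif21 pair was almost wholly Kif21a, whereas in WT the levels of the pair were of like size. Kif16b, which moves early endosomes, had 3.75 and 2.96 FPKM in KO, 6.80 and 6.99 FPKM in EE_KO and 8.75 and 7.13 FPKM in WT, and fell by 1.04. Kifc3, a minus-end motor of epithelial membranes and junctions, had 4.06 and 4.11 FPKM in KO, 11.4 and 12.9 FPKM in EE_KO and 10.9 and 10.1 FPKM in WT, and fell by 1.18.

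Kif13b, Kif1b and Kifc2 were not called in this comparison. Kif13b, a kinesin-3 motor, had 5.66 and 5.52 FPKM in KO, 4.21 and 3.96 FPKM in EE_KO and 5.30 and 4.41 FPKM in WT. Kif1b, which carries mitochondria and synaptic vesicle precursors, had 5.63 and 5.23 FPKM in KO, 5.31 and 5.56 FPKM in EE_KO and 4.87 and 5.15 FPKM in WT. Kifc2, a minus-end motor known from neurons, had 2.75 and 3.26 FPKM in KO, 2.52 and 2.79 FPKM in EE_KO and 2.72 and 3.49 FPKM in WT. Their differences in KO against WT lay between -0.03 and 0.17, and that of Kif13b and of Kif1b was called higher under TPM scaling (0.62 and 0.53, limma adjusted p = 0.00717 and 0.00937), as was that of Kif23 (0.46, adjusted p = 0.0410).

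Among the 5 others, Kif26a, an atypical kinesin without ATPase activity, rose by 1.67 (SE 0.14, adjusted p = 1.06e-05), with 3.11 and 3.20 FPKM in KO, 0.365 and 0.270 FPKM in EE_KO and 0.299 and 0.315 FPKM in WT. Kif1bp had 8.02 and 6.99 FPKM in KO, 8.68 and 8.32 FPKM in EE_KO and 7.36 and 8.56 FPKM in WT and was not called. The members here that did not pass the filter were Kif26b, at 0.0352 to 0.0909 FPKM over the 6 libraries, Kif28, at 0 in both WT libraries and at most 0.115 FPKM elsewhere, and Kif12, listed at 0 in all 6 libraries.

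**Figure D3:**
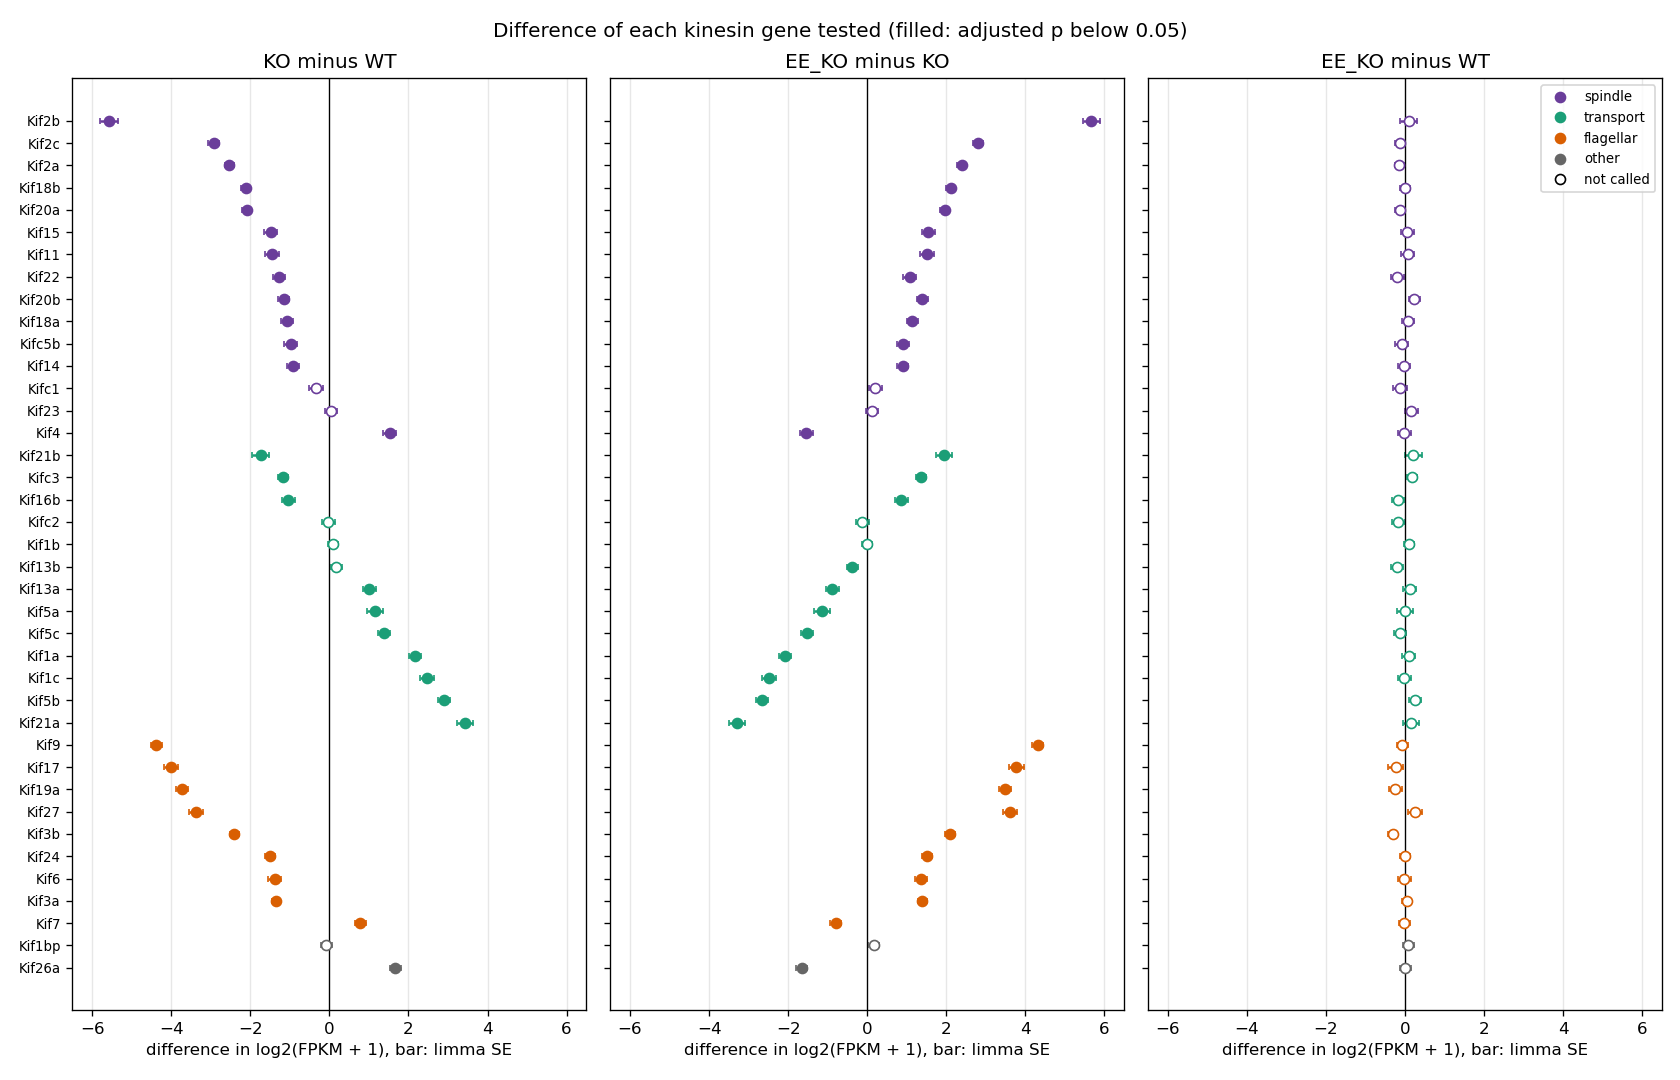
Difference in log2(FPKM + 1) of each of the 39 kinesin genes tested, with bars of limma's SE, for KO minus WT, EE_KO minus KO and EE_KO minus WT; filled points passed an adjusted p of 0.05 and colours give the class. In KO minus WT the points run between -5.58 (Kif2b) and 3.43 (Kif21a), and in EE_KO minus WT all are open and lie between -0.31 (Kif3b) and 0.25 (Kif5b).

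Read against the KO libraries, EE_KO had the spindle and flagellar kinesins higher and most transport kinesins lower. Of the 39 genes, 23 were called higher and 11 lower, against 47.8% and 37.8% of all genes tested. The counts were 12 of 15 spindle genes higher and 1 lower (median 1.39), 8 of 9 flagellar genes higher and 1 lower (median 2.09), and 3 of 13 transport genes higher and 8 lower (median -0.89), beside a median of 0.26 over all genes. Kif2b was 5.67 higher in EE_KO (SE 0.22, adjusted p = 2.57e-07), Kif9 4.31 higher (SE 0.13, adjusted p = 1.02e-07) and Kif21a lower, at -3.29 (SE 0.20, adjusted p = 2.18e-06). The eighth transport gene called lower was Kif13b (-0.37, SE 0.14, adjusted p = 0.0372), and it lost its call without either KO library or either EE_KO library (adjusted p between 0.0692 and 0.134). This comparison and KO against WT share the KO libraries, so their differences are not independent of each other.

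EE_KO set against WT showed no kinesin gene past the threshold. By limma 0 of 39 genes were called in either direction, against 0.026% of all genes higher and 0.0195% lower. At an unadjusted p below 0.05 there was 1 kinesin gene of 39, Kif3b, and 1149 of all genes tested; limma's voom on recovered reads also called 0 kinesin genes. Differences ran between -0.31 for Kif3b (70.8 and 71.9 FPKM in EE_KO, 96.7 and 81.7 FPKM in WT, SE 0.12, adjusted p = 0.598) and 0.25 for Kif5b (SE 0.15, adjusted p = 0.792), with a median of -0.01. The 2 groups' libraries did not overlap for 13 of the 39 genes, against 36.5% of all genes tested. With SE of 0.11 to 0.22, a small difference could have gone undetected, and 2 libraries against 2 allow an exact permutation p no smaller than 0.333.

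**Figure D4:**
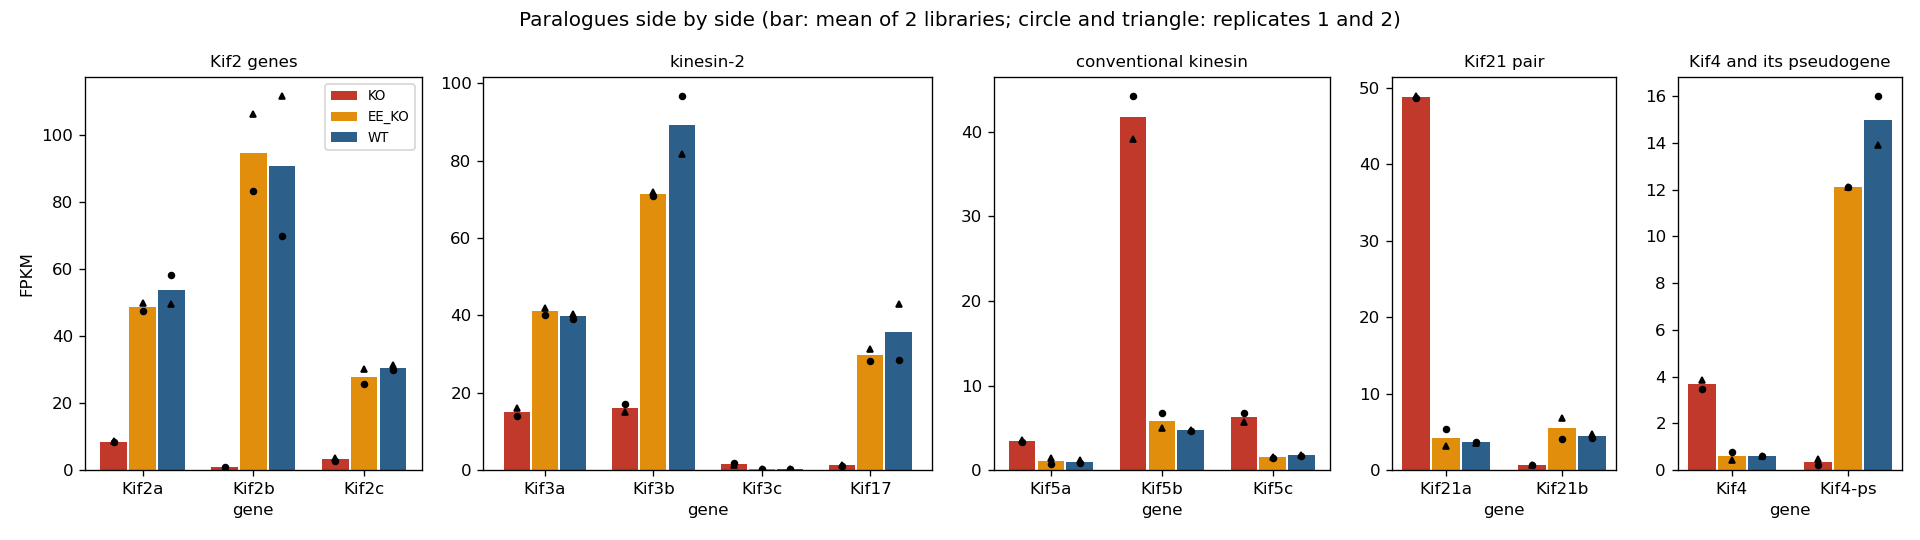
FPKM of related genes side by side; bars are means of 2 libraries, circles and triangles replicates 1 and 2, and each panel has its own scale that begins at 0. Kif2b fell below Kif2a and Kif2c in KO, Kif21a and Kif21b moved in opposite directions, and Kif4 (3.48 and 3.84 FPKM in KO) and its pseudogene Kif4-ps (0.228 and 0.458 FPKM in KO) changed places.

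RNA of marker genes of several cell types also differed between the groups. Calls of markers are for KO against WT, where 38% of all genes tested were called higher and 48.1% lower. The KO libraries had less RNA of most markers of their labelled cell type: 14 pachytene markers summed to 292 and 348 FPKM in KO, 5143 and 5544 FPKM in EE_KO and 5899 and 5355 FPKM in WT, and 13 of the 14 were called lower. Ldhc weighed most in these sums, with 52.9 and 68.5 FPKM in KO and 2816 and 2500 FPKM in WT. Sycp1, with 38.0 and 41.9 FPKM in KO and 43.2 and 47.9 FPKM in WT, was not called (-0.19, SE 0.13, limma adjusted p = 0.215). Sycp3 fell by 0.60, with 42.4 and 54.9 FPKM in KO and 74.0 and 72.8 FPKM in WT. All 15 spermatid markers fell too, with sums of 39.4 and 42.8 FPKM in KO, 2658 and 3796 FPKM in EE_KO and 2137 and 4075 FPKM in WT. Sertoli markers, 11 of 11 tested called higher, summed to 4226 and 3999 FPKM in KO, 488 and 263 FPKM in EE_KO and 304 and 307 FPKM in WT. Leydig markers, 9 of 9 called higher, summed to 2292 and 2195 FPKM in KO, 183 and 87.0 FPKM in EE_KO and 61.6 and 113 FPKM in WT. Of 7 macrophage markers 5 were tested and all 5 called higher. The 7 summed to 19.3 to 26.3 FPKM in KO, 4.02 to 4.41 FPKM in EE_KO and 3.10 to 4.06 FPKM in WT. C1qa was at 0 in both WT libraries. Csf1r and Adgre1 were not tested. Csf1r was higher in KO than in EE_KO and WT. Adgre1 was not, with 0.464 and 0.284 FPKM in KO, 0.717 and 0.660 in EE_KO and 0.375 and 0.571 in WT. Of 6 endothelial and peritubular markers 3 were tested and all 3 called higher. The 6 summed to 23.9 to 26.7 FPKM in KO, 3.15 to 6.03 FPKM in EE_KO and 2.94 to 3.33 FPKM in WT. C1qa, C1qb, Cd14, Cdh5, Pdgfra, Lhcgr (a Leydig marker) and Zbtb16 (a spermatogonial marker) were under 1 FPKM in every EE_KO and WT library. These genes passed the filter only through KO, so that their rise was bound up with their being tested. Spermatogonial markers split, 7 of 9 higher and 2 lower, with sums of 243 to 293 FPKM in KO, 256 to 287 FPKM in EE_KO and 284 to 295 FPKM in WT. These like sums hide the split, as Ddx4, which fell, made up most of them in EE_KO and WT. Ddx4 had 34.6 and 42.8 FPKM in KO, 213 and 249 FPKM in EE_KO and 256 and 243 FPKM in WT. Among the 7 that rose, Uchl1 had 103 and 139 FPKM in KO, 11.8 and 10.7 FPKM in EE_KO and 11.6 and 11.9 FPKM in WT. Of 10 markers of dividing cells 3 rose and 6 fell, with sums of 139 to 155 FPKM in KO, 363 to 386 FPKM in EE_KO and 401 to 456 FPKM in WT. Apart from C1qa no marker was at 0 in any library. In bulk RNA, fewer cells of a type and less RNA per cell cannot be told apart, and the part of these markers in the kinesin differences was not tested.

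Replicates of one group differed for some kinesin genes and not for others. In EE_KO, replicate 2 held 0.538 times the Sertoli and 0.475 times the Leydig marker sum of replicate 1. Of the genes that rose in KO, Kif4 (0.535 times), Kif21a (0.574), Kif1c (0.612), Kif13a (0.729), Kif5b (0.740) and Kif26a (0.740) were also lower in EE_KO replicate 2. Kif1a (0.899), Kif7 (1.01), Kif5c (1.09) and Kif5a (2.05) did not follow to that extent. In WT, replicate 2 held 1.91 times the spermatid and 1.83 times the Leydig marker sum of replicate 1. Among the genes that fell in KO, Kif2b (1.60 times) and Kif17 (1.51) were higher in WT replicate 2, whereas Kif9 (0.805), Kif19a (0.767), Kif3b (0.845) and Kif2a (0.856) were lower. Of the genes that rose in KO, Kif13a (1.62 times), Kif5a (1.34), Kif1c (1.32) and Kif1a (1.18) were higher in WT replicate 2. Kif5c (1.07), Kif26a (1.05), Kif4 (1.02), Kif5b (1.02), Kif7 (0.957) and Kif21a (0.955) differed little between the WT libraries. With 2 libraries a group these are descriptions, and the part of other cells in them was not tested.

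Genes of known kinesin partners were examined by list, beside the 38% of all genes tested that rose and the 48.1% that fell in KO against WT. Among 15 intraflagellar transport genes of the IFT-B complex, the cargo train of kinesin-2, 14 fell in KO and 1 was not called (median -2.30). Ift172, the largest scaffold subunit, had 7.63 and 9.22 FPKM in KO, 117 and 121 FPKM in EE_KO and 136 and 118 FPKM in WT, and fell by 3.77 (SE 0.12, adjusted p = 1.14e-07). Ift22, Ift46 and Ift80 fell by 2.72, 2.36 and 2.31. Kifap3, the third subunit of the kinesin-2 motor beside Kif3a and Kif3b, fell by 1.99, with 8.73 and 8.39 FPKM in KO, 37.4 and 42.4 FPKM in EE_KO and 33.2 and 41.3 FPKM in WT. In EE_KO against KO all 15 IFT-B genes were called higher, against 47.8% of all genes tested.

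Among 19 spindle partners of kinesins, 15 fell and 2 rose (median -1.90). Aurkc, the germline Aurora kinase of the chromosomal passenger complex, had 0.585 and 0.567 FPKM in KO, 15.6 and 14.7 FPKM in EE_KO and 29.0 and 23.1 FPKM in WT, and fell by 4.09 (SE 0.14, adjusted p = 1.50e-07). Plk1, the mitotic Polo kinase, fell by 3.16, Spag5, a spindle pole protein also called astrin, by 2.83 and Cdca8, the passenger subunit borealin, by 2.30. Cenpe, a kinesin under another name that congresses chromosomes, had 4.20 and 5.39 FPKM in KO, 17.2 and 17.998 FPKM in EE_KO and 18.7 and 16.1 FPKM in WT and fell by 1.67 (SE 0.14, adjusted p = 1.17e-05). Stard9, a centrosomal kinesin, was not called (0.15, SE 0.20, adjusted p = 0.512).

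The 16 kinesin light chains and cargo adaptors split, with 6 higher, 5 lower and a median of -0.03, shares no larger than the background of 38% and 48.1%. Mapk8ip2, a JNK scaffold that binds light chains, had 1.58 and 1.99 FPKM in KO, 34.1 and 36.6 FPKM in EE_KO and 42.6 and 35.9 FPKM in WT, and fell by 3.85 (SE 0.14, adjusted p = 1.48e-07). Fhl5, the ACT protein that Kif17 moves, had 0.808 and 0.541 FPKM in KO, 34.2 and 45.0 FPKM in EE_KO and 21.7 and 34.8 FPKM in WT, and fell by 4.09 (SE 0.23, adjusted p = 1.37e-06). Plekhm2, which links kinesin-1 to lysosomes, fell by 2.53.

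Of 16 subunits of cytoplasmic dynein and dynactin, the motor that runs opposite to most kinesins, 4 rose and 11 fell (median -0.85), beside the 38% and 48.1% of all genes. The light chain pair of the roadblock type moved apart, as Kif21a and Kif21b did. Dynlrb2 had 2.20 and 2.80 FPKM in KO, 84.4 and 91.1 FPKM in EE_KO and 105 and 93.5 FPKM in WT, and fell by 4.84 (SE 0.13, adjusted p = 6.30e-08). Dynlrb1 had 48.2 and 46.4 FPKM in KO, 7.92 and 5.96 FPKM in EE_KO and 4.32 and 5.24 FPKM in WT, and rose by 3.07 (SE 0.15, adjusted p = 7.88e-07). The dynactin subunits Actr10 and Dctn2 fell by 2.02 and 1.71.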

How the data were processed

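Each library's values were deposited by the authors as FPKM per Ensembl gene, per the file headers; GRCm38 and mm10 are named in the submitters' processing notes, while aligner, counter and read strand are not stated in the sources used here. GENCODE M21 supplied symbols, types, positions and exon lengths for 54495 of the 54532 genes. FPKM times exon length gave whole reads for 96.8 to 97.0% of values above 0 (tolerance 0.01). Genes with a mean of at least 1 FPKM over the 6 libraries were tested, without 535 short RNA genes and 9 lower entries of repeated symbols, in 1 limma fit of log2(FPKM + 1) that used a mean-variance trend and no replicate block (limma 3.58.1 in R 4.3.3). The added 1 FPKM understates changes of low genes. A gene under 1 FPKM in one group passes the filter only through the others, so that its call is bound up with its being tested. The pipeline was tested on simulated data in which few genes were changed. In KO against WT most genes were called, so that test does not cover shifts of this extent. Alternative settings were a pseudocount of 0.1 or 0.5, a filter at 5 FPKM or none, TPM scaling, quantile normalization, no trend, a replicate block, the compared groups alone, an adjusted p below 0.1, a fold of at least 2 and each library left out; voom on recovered reads was added after seeing the data. Promoters and motifs came from RefSeq tables and shared words of 50 bases from the annotation's transcripts. Every member is accounted for; full statistics are given for the 4 members of each class with the furthest change called in KO against WT, and for up to 4 genes of a partner list by smallest p. Members, roles and lists were chosen with earlier results of these data known. Tables and figures used Python 3.11.15, pandas 2.3.3, numpy 2.4.6 and matplotlib 3.10.9.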

Additional observations from a re-analysis of the deposited data

How the results depend on the processing

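The kinesin counts were recomputed under 18 alternatives each. In KO against WT the same 33 genes were called in 14 of them; no filter added Kif3c, TPM added Kif13b, Kif1b and Kif23, and a fold of at least 2 lost Kif14, Kif7 and Kifc5b. A mean of at least 5 FPKM left 25 kinesin genes tested and 2 called higher in KO against WT, and 2 called lower in EE_KO against KO; 12 and 13 of the genes called in those comparisons were then not tested. In EE_KO against KO, no filter added Kif3c, TPM added Kif1b, leaving out a KO or EE_KO library lost Kif13b, and a fold of at least 2 left 28 of 34 genes called. With a replicate block the counts in KO against WT were 10 higher and 23 lower, in EE_KO against KO 23 and 11 and in EE_KO against WT 0, the same genes as without it. Deviations of same-numbered libraries had correlations of -0.03 (KO and WT), 0.09 (EE_KO and KO) and 0.05 (EE_KO and WT) over 15363 genes. With 2 libraries a group, these values cannot decide whether same-numbered libraries came from the same experiment. EE_KO against WT gave 0 kinesin genes under each alternative run. Of the differences of single genes, signs turned only for members not called. In KO against WT, Kif1bp was 0.34 under TPM, 0.10 under quantile normalization and -0.17 to 0.022 without 1 library; Kif23 was -0.15 to 0.23 without 1 library. Kifc1 was 0.035 under TPM, and Kifc2 was 0.36 under TPM, 0.073 under quantile normalization and -0.17 to 0.10 without 1 library. In EE_KO against KO, under TPM and quantile normalization, Kif1bp was -0.21 and -0.0048, Kif23 -0.26 and -0.016 and Kif1b -0.38 (called, adjusted p = 0.0347) and -0.11. Kif1b was also -0.044 to 0.046 without 1 library, and Kifc1 was -0.15 under TPM. The cause was not tested. Depth limits the low genes: 1 read over 2 kb is 0.0278 to 0.0357 FPKM, and Kif12 and Kif28 rest on at most 6 reads a library.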

Other observations

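Beside Kif4-ps, the other symbols that match the rule but encode no protein were low. Kifc5c-ps, a transcribed pseudogene on chromosome 10, was listed at 0 in both KO libraries, with 1.21 and 1.35 FPKM in EE_KO and 1.03 and 0.864 FPKM in WT. Kif16bos, an antisense gene on chromosome 2, was also listed at 0 in both KO libraries. It had 2.07 and 1.35 FPKM in EE_KO and 1.44 and 2.94 FPKM in WT (KO against WT -1.63, SE 0.25, limma adjusted p = 0.000322). Kif16bos passed the filter only through EE_KO and WT, so that its fall was bound up with its being tested. Kif22-ps was listed at 0 in all 6 libraries. Of the 4 kinesin light chain genes, Klc1, the widely used chain, had 7.37 and 8.36 FPKM in KO, 2.87 and 3.55 FPKM in EE_KO and 3.04 and 2.58 FPKM in WT, and was called higher in KO against WT (1.22, SE 0.16, limma adjusted p = 0.000125). Klc2 had 48.9 and 50.1 FPKM in KO, 45.9 and 41.7 FPKM in EE_KO and 47.3 and 45.8 FPKM in WT, and was not called in KO against WT (0.09, SE 0.10, limma adjusted p = 0.440), beside 44.3 and 39.2 FPKM of the heavy chain gene Kif5b in KO and 4.66 and 4.73 FPKM in WT. Klc1 and Klc2 were picked after their values were seen.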
